A study of Mus musculus with 10 samples.

Results

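Far-distal peaks were defined as peaks of open chromatin on chromosomes 1 to 19 whose midpoint lay over 100 kb from every start of a protein-coding transcript in the GENCODE annotation of GRCm38. The rule used position alone, and 13960 of 97385 peaks met it, which is 14.3% of all peaks and 14.8% of the 94486 autosomal peaks. Counts at these peaks were read in all 10 libraries, and 13907 of the 13960 passed the filter on low counts and entered the tests. The peak just inside the limit lay 100004 bp from the nearest coding start at a mean of 0.291 CPM (counts scaled to a common library total), and the peak just outside it lay 99998 bp away at 9.28 CPM.

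The study used ATAC-seq, in which a transposase cuts and tags accessible DNA, to compare Tregs (regulatory T cells) with and without Vps34, the lipid kinase encoded by Pik3c3, in spleen and lung. Tregs were sorted as CD4+Foxp3-YFP+TCRb+ cells from 10-day-old C57BL/6 mice of both sexes. Control mice were Foxp3Cre Pik3c3 +/+ or Foxp3Cre Pik3c3 +/fl, and Vps34-deficient mice were Foxp3Cre Pik3c3 fl/fl, so that controls carried the Cre as well and some carried 1 floxed allele. By the labels, the spleen gave 2 control and 4 Vps34-deficient libraries, and the lung gave 2 of each. The study's methods give the spleen counts of the 2 genotypes in reverse and the lung counts as labelled, so spleen genotype values below are signed by the labels, and the overlap of their calls with those of lung is given beside them. Cre was driven from the Foxp3 locus, so deletion was aimed at Foxp3-expressing cells, and the share of cells that lost the gene was not measured here. The labels do not say whether 1 library stood for 1 mouse or for pooled mice, so p-values measure the spread between these libraries.

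Regions this far from coding starts hold distal enhancers, which are stretches of DNA bound by transcription factors that can act on a gene over long genomic distances through looping of the chromatin. Many such elements lie in gene deserts, long gaps without protein-coding genes that often flank genes for developmental or lymphocyte transcription factors. In T cells, AP-1, ETS, RUNX and TCF/LEF proteins are frequent occupants of distal elements, while CTCF marks sites that bound chromatin loops.

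The central 200 bases of 8 far-distal peaks are shown because these peaks led their comparisons or, in the last case, held the highest level. Bases were read from the plus strand of the GRCm38 RefSeq genome, 5′ to 3′, and capitals mark matches on either strand to a fixed set of consensus letters: TGANTCA for AP-1, AGGAAGT for ETS, TGTGGTT for RUNX, CTTTGAT for TCF/LEF, AGATAAG for the GATA family, TGTTTAC for FOX, CCACACCC for KLF, AAAGGTCA for NR4A, CAGCTG for the E-box, and the longer CTCF core and NF-kB consensus. Matches of different motifs may overlap, and a match describes letters, not a bound site.
Jag1 to Btbd3 desert (lowest p among losses without Vps34, both tissues), chr2:137224663-137224862: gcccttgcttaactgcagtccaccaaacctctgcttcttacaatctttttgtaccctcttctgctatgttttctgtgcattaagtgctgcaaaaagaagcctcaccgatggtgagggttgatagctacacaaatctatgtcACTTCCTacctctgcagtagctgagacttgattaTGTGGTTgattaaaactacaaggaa
within 1700025G04Rik (gain without Vps34, spleen), chr1:151974541-151974740: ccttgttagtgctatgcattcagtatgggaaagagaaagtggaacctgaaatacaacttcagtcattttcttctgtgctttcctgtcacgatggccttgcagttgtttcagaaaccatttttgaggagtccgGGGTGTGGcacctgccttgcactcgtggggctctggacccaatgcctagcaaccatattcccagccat
Wdr11 to Fgfr2 desert (gain without Vps34, lung), chr7:129774243-129774442: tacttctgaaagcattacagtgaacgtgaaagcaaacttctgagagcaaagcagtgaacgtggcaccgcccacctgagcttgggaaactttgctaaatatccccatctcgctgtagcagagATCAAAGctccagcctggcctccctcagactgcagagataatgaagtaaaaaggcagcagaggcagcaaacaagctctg
Egln3 to Sptssa gap (higher in lung, control), chr12:54459431-54459630: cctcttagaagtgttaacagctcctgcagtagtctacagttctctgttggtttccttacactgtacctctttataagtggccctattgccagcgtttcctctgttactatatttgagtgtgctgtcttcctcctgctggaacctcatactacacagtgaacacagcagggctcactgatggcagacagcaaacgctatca
Cobl to Pom121l12 desert (lower in lung, control), chr11:14142596-14142795: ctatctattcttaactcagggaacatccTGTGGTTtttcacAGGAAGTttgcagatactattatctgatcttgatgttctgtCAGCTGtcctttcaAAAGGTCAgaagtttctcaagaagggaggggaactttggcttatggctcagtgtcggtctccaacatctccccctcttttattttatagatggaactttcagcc
Gm11361 to Sox4 desert (higher in lung, Vps34-deficient), chr13:28417596-28417795: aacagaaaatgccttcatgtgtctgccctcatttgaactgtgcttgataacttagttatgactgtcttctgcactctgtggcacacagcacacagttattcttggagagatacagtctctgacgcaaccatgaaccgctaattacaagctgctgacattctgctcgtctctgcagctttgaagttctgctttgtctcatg
Sel1l to Flrt2 desert (lower in lung, Vps34-deficient), chr12:92530156-92530355: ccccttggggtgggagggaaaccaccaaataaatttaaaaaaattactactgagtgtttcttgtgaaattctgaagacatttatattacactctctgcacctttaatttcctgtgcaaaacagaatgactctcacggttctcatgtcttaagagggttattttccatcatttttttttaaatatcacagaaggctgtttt
Pcsk5 to Ostf1 desert (highest level, 210 bp wide), chr19:18338624-18338823: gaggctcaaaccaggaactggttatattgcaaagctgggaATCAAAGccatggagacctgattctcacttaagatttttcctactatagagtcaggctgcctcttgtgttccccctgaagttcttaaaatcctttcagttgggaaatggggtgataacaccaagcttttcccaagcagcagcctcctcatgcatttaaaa
The Jag1 desert peak, which led the losses without Vps34, held 1 ETS and 1 RUNX match, and the Cobl desert peak, which led the peaks lower in lung in controls, held RUNX, ETS, E-box and NR4A matches. The Wdr11 desert peak and the tallest peak held 1 TCF/LEF match each, and the 1700025G04Rik peak held 1 KLF match. The other 3 windows held none of the searched letters.

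The far-distal peaks fell into 2 classes by width, and results are given for the wider class and for every width. Of the 13960, 5514 were 200 to 220 bp wide, 2463 of them exactly 210 bp, whereas 7834 were wider than 220 bp (median 361 bp) and 612 were narrower than 200 bp. The split at 220 bp was chosen after these widths had been seen, so comparisons between the classes are descriptions. The wider peaks had a median of 2.91 CPM, which was 1.46 CPM up to 300 bp, 2.68 CPM over 300 and up to 400 bp, 4.97 CPM over 400 and up to 600 bp and 8.82 CPM above 600 bp, while the 200 to 220 bp peaks had a median of 1.59 CPM but reached 282 CPM at the same width. Of the 149 far-distal peaks over 50 CPM, 59 belonged to the 200 to 220 bp class, and it supplied the 6 tallest. The classes also differed in base composition, with a median GC content of 46.2% in the wider peaks and 41.4% in the 200 to 220 bp peaks.

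**Figure D1:**
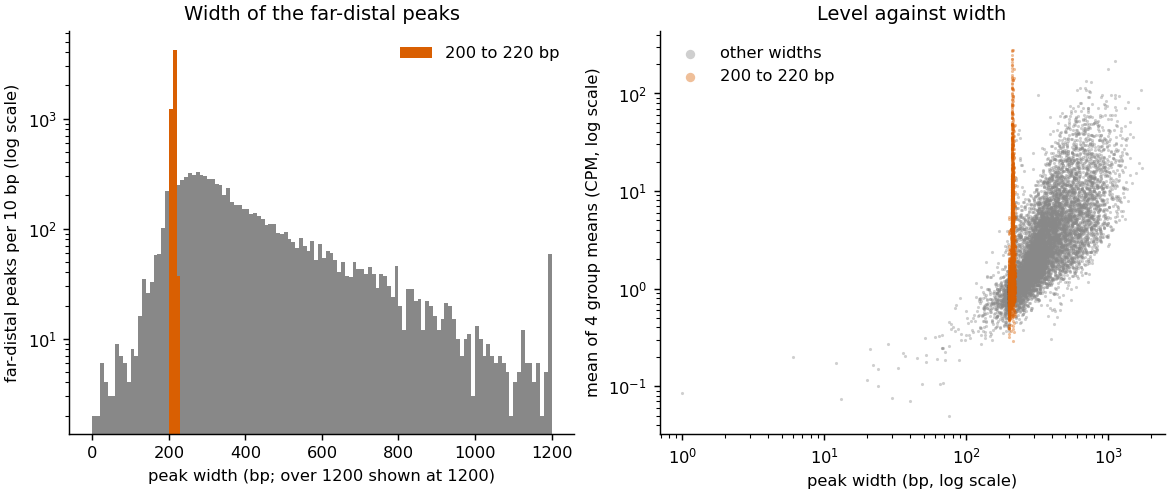
The left panel counts far-distal peaks per 10 bp of width on a log axis, and the right panel sets each peak's mean CPM against its width on log axes. Peaks 200 to 220 bp wide are in orange and form a single column that reaches 282 CPM, while the level of the other peaks (grey) rises with their width.

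The tallest of them all was the 210 bp peak chr19:18338619-18338828 in the Pcsk5 to Ostf1 desert, 293.1 kb from Ostf1. It measured 132 and 186 CPM in spleen controls, 161 to 237 CPM in the 4 Vps34-deficient spleen libraries, 401 and 248 CPM in lung controls and 405 and 467 CPM in Vps34-deficient lung. In the next 4 by level lung control replicate 1 was also above replicate 2 and Vps34-deficient lung replicate 2 was the highest library, and they had group means of 128 to 150 CPM in spleen controls and of 340 to 438 CPM in Vps34-deficient lung. These were chr2:6483112-6483323 between Usp6nl and Celf2, chr5:96504984-96505193 in Fras1, chr13:25692268-25692477 in the Nrsn1 to Hdgfl1 desert and chr3:61875742-61875951 in the Rap2b to Arhgef26 desert. The 3 peaks farthest from any coding start were 211, 210 and 199 bp wide. All of them lay in the 4542 kb desert between the protocadherin genes Pcdh20 and Pcdh9, at 2644, 2565 and 2554 kb from a start, with means of 1.61, 2.06 and 0.990 CPM.

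The tallest of the wider far-distal peaks were steady across the libraries and sat at starts of other kinds of transcript. The highest, chr13:107889865-107890988, lay 0.362 kb from a start of Zswim6, which RefSeq lists as protein-coding and the GENCODE release used here as a processed transcript, and measured 196 to 226 CPM over the 10 libraries. Next came chr1:7397535-7398537, 0.167 kb from a start of Gm26901, at 159 to 198 CPM, and chr17:17234367-17235063, 0.157 kb from a start of Gm5165, at 112 to 151 CPM. None of the 3 was called in any comparison. In all, 691 far-distal peaks lay at most 1 kb from an annotated start of some transcript, 2319 lay over 100 kb from every annotated start, coding or not, and 109 had their midpoint in an exon of a protein-coding transcript.

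By position, 6586 far-distal peaks lay in gene deserts, taken as gaps of at least 500 kb between neighbouring protein-coding genes, 4110 lay within the body of a long protein-coding gene and 3264 in shorter gaps. The median distance to a coding start was 193 kb, with 1809 peaks over 500 kb and 416 over 1000 kb away. Levels were low beside those nearer to genes, with a median of 2.12 CPM (10th to 90th percentile 0.895 to 11.0) against 17.3 CPM within 1 kb of a coding start and 2.88 CPM at 1 to 100 kb. Among peaks wider than 220 bp the median was 3.04 CPM at 100 to 200 kb, 2.82 CPM at 200 to 500 kb and 2.43 CPM beyond 500 kb. The far-distal share of a chromosome's peaks ran from 8.40% on chromosome 11 to 23.8% on chromosome 12.

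Libraries held 9405823 to 22439699 counts in peaks, and 96.7% of the far-distal counts were even numbers, and how the reads of a pair were counted was not tested. Replicates differed by more than counting noise in every group (chi-square per degree of freedom 1.38 to 2.69 on halved counts). Promoter peaks of all 7 T cell and Treg genes checked, among them Cd4 and Foxp3, were present and summed to 210 to 290 CPM. Of the other lists, 3 of 6 B cell genes had a promoter peak (27.8 to 37.9 CPM summed), as did 3 of 6 myeloid genes (16.1 to 27.4 CPM), 4 of 6 lung epithelium and endothelium genes (42.7 to 52.0 CPM) and 3 of 5 CD8 T and NK genes (23.1 to 37.5 CPM), whereas Lyz2, Csf1r and Adgre1 of myeloid cells, Sftpc and Krt8 of lung epithelium, and Klrb1c and Ncr1 of NK cells had no promoter peak. At Pik3c3 itself the promoter peak measured 60.7 and 62.0 CPM in spleen controls, 63.5 to 67.3 CPM in Vps34-deficient spleen, 52.5 and 57.0 CPM in lung controls and 55.1 and 61.8 CPM in Vps34-deficient lung. The sources used here do not place the floxed exons, so the promoter level does not check the deletion.

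The share of a library's counts that fell in far-distal peaks was higher in lung. Lung libraries were also smaller, with 9405823 to 14172956 counts in peaks, beside 13932355 to 22439699 in spleen libraries. The far-distal share was 6.23% and 6.29% in spleen controls, 6.43% to 7.05% in Vps34-deficient spleen, 8.53% and 6.92% in lung controls and 8.52% and 9.06% in Vps34-deficient lung. Lung exceeded spleen by 1.61 percentage points (exact two-sided permutation test over 210 arrangements, p = 0.0143, smallest possible 0.00476). Within controls the difference was 1.46 points (exact permutation p = 0.333, smallest possible 0.167) and within Vps34-deficient libraries 1.96 points (exact permutation p = 0.0667, the smallest possible). Vps34-deficient libraries exceeded controls of the same tissue by 0.821 points (exact permutation within tissues, 90 arrangements, p = 0.0444). Within spleen the difference was 0.574 points (exact permutation p = 0.133, smallest possible 0.0667) and within lung 1.07 points (exact permutation p = 0.667, smallest possible 0.167). That call was lost when any of 8 libraries was left out, with p up to 0.311 without Vps34-deficient lung replicate 2 and a difference of 0.418 points without lung control replicate 2.

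Both differences came with the 200 to 220 bp class. Its share was 1.02% and 1.31% in spleen controls, 1.35% to 1.91% in Vps34-deficient spleen, 3.58% and 2.11% in lung controls and 3.77% and 4.13% in Vps34-deficient lung. Peaks of this width at 1 to 100 kb from a start moved in the same way. They held 2.51% and 3.11% in spleen controls, 3.16% to 4.25% in Vps34-deficient spleen, 7.52% and 4.68% in lung controls and 7.81% and 8.49% in Vps34-deficient lung. For wider far-distal peaks the tissue difference had the other sign, with every lung library (4.70% to 4.89%) below every spleen library (4.94% to 5.17%), which is 0.257 points lower on average in lung. Their share was 0.0186 points lower in Vps34-deficient libraries than in controls of the same tissue. No test is given for these, since the width class was chosen after the values had been seen. The summed counts of the 200 to 220 bp peaks ran from 189757 in spleen control replicate 2 to 463988 in Vps34-deficient lung replicate 1, libraries with totals of 14519013 and 12312928. These peaks held 3.58% of lung control replicate 1 and 4.13% of Vps34-deficient lung replicate 2, the smallest libraries. They held 1.02% of spleen control replicate 1 and 1.35% of Vps34-deficient spleen replicate 3, the largest. At similar totals, they held 2.11% of lung control replicate 2 and 1.91% of Vps34-deficient spleen replicate 4. What these peaks are, and the part of the tissue, of the library total or of library quality in their level, was not tested.

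**Figure D2:**
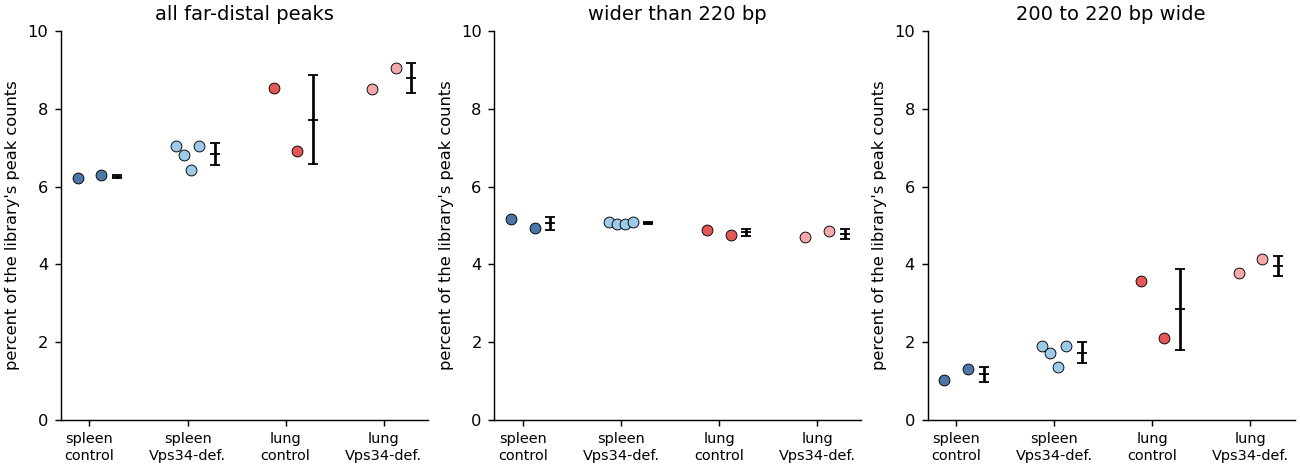
Percent of each library's peak counts in all far-distal peaks (left), in those wider than 220 bp (middle) and in those 200 to 220 bp wide (right), with 1 point a library and bars for the group mean ± SD. Lung libraries sit above spleen on the right, between 2.11% and 4.13%, while the middle panel stays near 5% in every group.

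With all libraries in, more far-distal peaks wider than 220 bp were lower than higher in Vps34-deficient Tregs, but in lung this balance turned when lung control replicate 1 was left out (5.57% higher and 5.0% lower). In spleen, 26 of 7832 tested wider peaks (0.332%) were higher and 140 (1.79%) lower in Vps34-deficient Tregs, beside 0.227% and 1.31% of all tested peaks wider than 220 bp. In lung, 155 (1.98%) were higher and 378 (4.83%) lower, beside 1.38% and 4.68%. The higher share in lung was 4.01% in a fit on peaks wider than 220 bp alone. With lung libraries alone it was 0.303%, and the lower share 2.98%. The median of the log2 fold changes over the wider far-distal peaks was 0.04 in spleen and 0.05 in lung, near the −0.00 and −0.05 of all peaks wider than 220 bp. Calls were made by edgeR's quasi-likelihood test at a Benjamini-Hochberg adjusted p under 0.05 over all 97109 tested peaks and an absolute log2 fold change over 0.5. Lower far-distal peaks fell by a median of 1.40 on the log2 scale in spleen and 1.58 in lung. In bulk libraries, fewer cells in which a region is open and less opening per cell cannot be told apart.

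With every width counted, 114 far-distal peaks (0.820%) were higher and 143 (1.03%) lower in spleen, beside 0.441% and 1.02% of all peaks, and in lung 213 (1.53%) were higher and 393 (2.83%) lower, beside 1.22% and 3.74%. The 200 to 220 bp class accounted for 87 of the 114 higher calls in spleen and for 1 of the 143 lower calls. Of the 140 wider peaks lower in spleen, 107 were also lower in lung, which is 76.4% of the spleen list and 28.3% of the lung list, and 4 were higher in both (15.4% of 26 and 2.58% of 155). Over all peaks wider than 220 bp, 779 of 975 were shared in the same way (79.9% and 22.4%), and 37 were higher in both (21.9% and 3.60%). With the spleen libraries grouped as labelled, most lower calls in spleen thus had the sign of the lung comparison, where labels and methods give the same numbers. The difference of the genotype effect between the tissues passed at no far-distal peak in edgeR (0.0% of all peaks passed either). Without adjustment, p was under 0.05 at 961 of 13907 far-distal peaks (6.91%), beside 7060 of 97109 peaks in all (7.27%), and DESeq2 called 5 far-distal peaks after adjustment, beside 25 of all peaks.

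These counts moved when single libraries were left out. Without spleen control replicate 1 or 2 the lower share of wider peaks in spleen was 0.613% or 0.485%, and the higher share 0.0383% or 0.0128%. The higher share in spleen also moved to 0.115%, 0.0894% and 0.128% without Vps34-deficient spleen replicate 1, 2 or 4 and to 0.791% and 0.817% without lung control replicate 1 or 2. In the lung comparison, beside the turn given above, leaving out lung control replicate 2 gave a higher share of 0.715%, while the lower share was 1.83% when that library was left out and 2.02% and 2.91% without Vps34-deficient lung replicate 1 or 2. Over every width, the higher share in spleen was 0.0215% and 0.0431% without spleen control replicate 1 or 2, 0.209%, 0.166%, 2.11% and 0.209% without Vps34-deficient spleen replicate 1, 2, 3 or 4, and 2.39% and 2.49% without lung control replicate 1 or 2, and the lower share was 0.345% and 0.273% without spleen control replicate 1 or 2. The lung shares over every width were 9.09% and 0.431% higher when lung control replicate 1 or 2 was dropped and 0.818% without Vps34-deficient lung replicate 1, and 1.06%, 1.16% and 1.72% lower without lung control replicate 2 or Vps34-deficient lung replicate 1 or 2. Higher calls thus exceeded lower ones over every width in lung without lung control replicate 1 (9.09% and 2.94%), and in spleen without lung control replicate 1 (2.39% and 1.54%), lung control replicate 2 (2.49% and 1.51%) or Vps34-deficient spleen replicate 3 (2.11% and 0.964%). The spleen balance over every width turned as well with spleen libraries alone (2.79% and 1.85%), DESeq2 (1.28% and 1.14%), a chromosome Y covariate (1.31% and 1.16%), peaks over 500 kb from a start (1.22% and 0.387%) and peaks far from every annotated start (0.692% and 0.519%). Summed promoter CPM of the myeloid list, in which 3 of 6 genes had a peak, was 22.5 to 27.4 in controls and 16.1 to 22.2 in Vps34-deficient libraries, and that of the CD8 T and NK list was 23.1 to 27.6 in lung controls and 32.8 to 34.3 in Vps34-deficient lung (3 of 5 genes with a peak). Their part in these counts was not tested.

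**Figure D3:**
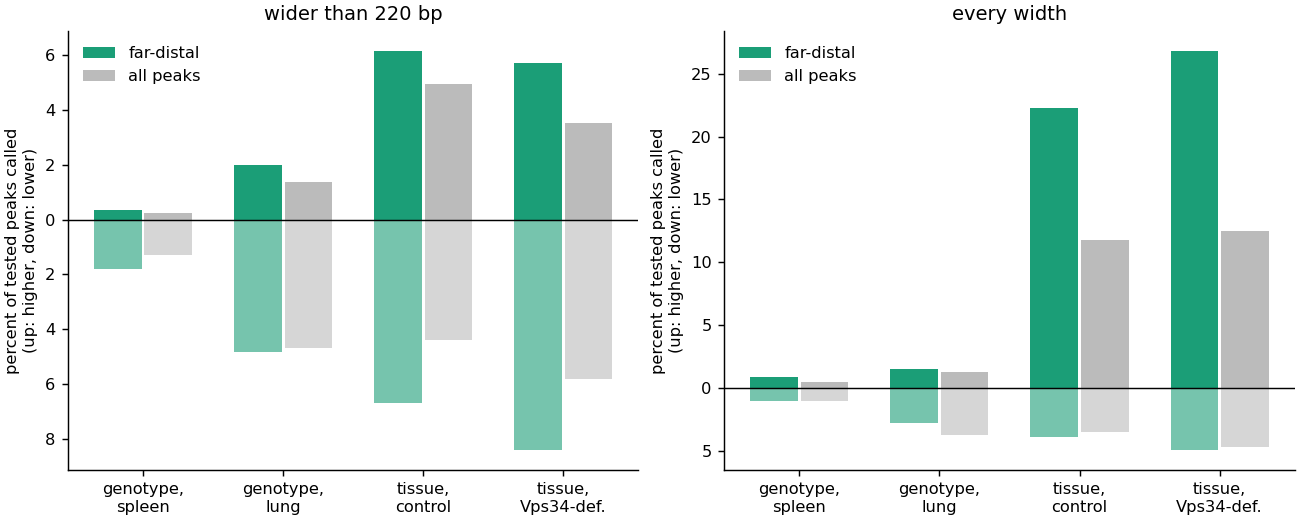
Percent of tested peaks called higher (up) or lower (down) in each comparison, for far-distal peaks (green) beside all peaks (grey), with peaks wider than 220 bp on the left and every width on the right. On the left the far-distal shares run from 0.332% to 8.40%, and on the right 22.3% and 26.8% of far-distal peaks are higher in lung.

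The far-distal peak with the smallest p for genotype in either tissue was chr2:137224453-137225071, 108.1 kb from Jag1, which encodes a Notch ligand. Spleen controls had 15.4 and 19.7 CPM and Vps34-deficient spleen 2.09, 1.71, 2.62 and 2.58 CPM. Lung controls had 29.1 and 35.8 CPM and Vps34-deficient lung 3.90 and 6.56 CPM. No Vps34-deficient library reached the lowest control of its tissue. Peaks named by p, here and below, were chosen among called peaks whose groups did not overlap, so that separation was fixed by the choice. The peak fell by 2.95 ± 0.21 (SE) on the log2 scale in spleen (adjusted p = 3.96e-08) and by 2.68 ± 0.25 in lung (adjusted p = 2.06e-06). It was also higher in lung than in spleen, by 0.97 ± 0.22 in controls (adjusted p = 0.00384) and by 1.24 ± 0.25 in Vps34-deficient Tregs (adjusted p = 0.00121). Its window is the one shown above with an ETS and a RUNX match.

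That peak lies in the 1140 kb Jag1 to Btbd3 desert, which held 13 far-distal peaks, 6 of them wider than 220 bp. The neighbouring chr2:137225208-137225576 went from 3.65 and 4.96 CPM in spleen controls to 0.361 to 1.44 CPM in Vps34-deficient spleen, and from 6.80 and 9.88 to 1.14 and 1.48 CPM in lung. Another, chr2:137490594-137490949, 374.1 kb from Jag1, went from 1.34 and 0.964 to 0.0903 to 0.278 CPM in spleen and from 3.40 and 3.53 to 1.14 and 0.635 CPM in lung. Both fell in both tissues. At chr2:137236920-137237272 lung controls had 4.25 and 7.34 CPM and Vps34-deficient lung 0.325 and 0.741 CPM, a fall of 3.51 ± 0.65 (adjusted p = 0.00178). This peak was near the floor of the spleen libraries, at 0.357 and 0.689 CPM in controls and 0 to 0.271 CPM without Vps34 (adjusted p = 0.237). The other 2 wider peaks of the desert, 313.6 and 223.0 kb from the nearest coding start, were called in neither tissue, and the median log2 fold change of all 6 was −2.06 in spleen and −2.32 in lung.

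Next after the Jag1 peak came chr9:117399940-117400842, inside Rbms3, a gene for an RNA-binding protein, with its midpoint outside the gene's exons and 147.9 kb from the gene's nearest start. It measured 42.1 and 35.7 CPM in spleen controls against 12.2 to 17.7 CPM in Vps34-deficient spleen, and 63.6 and 53.7 CPM in lung controls against 15.6 and 19.7 CPM in Vps34-deficient lung. The groups did not overlap in either tissue, which the choice required in a comparison that named the peak. It fell by 1.42 ± 0.14 in spleen (adjusted p = 2.15e-06) and 1.76 ± 0.17 in lung (adjusted p = 2.06e-06). The peak chr4:98282176-98282910, in the gap between Nfia, a transcription factor gene, and Tm2d1, was lower in both tissues as well. Spleen controls had 30.5 and 24.4 CPM and Vps34-deficient spleen 6.36 to 9.91 CPM, while lung controls had 31.0 and 35.7 CPM and Vps34-deficient lung 6.66 and 8.26 CPM. The fall was 1.72 ± 0.16 in spleen (adjusted p = 2.15e-06) and 2.20 ± 0.21 in lung (adjusted p = 2.06e-06).

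Among the gains, in the 526.7 kb desert between Wdr11 and Fgfr2, a fibroblast growth factor receptor gene, chr7:129774047-129774637 had 26.6 and 19.2 CPM in lung controls and 48.1 and 48.9 CPM in Vps34-deficient lung, a rise of 1.07 ± 0.14 (adjusted p = 5.08e-05). In spleen the 4 Vps34-deficient libraries (40.8 to 46.2 CPM) also lay above both controls (34.2 and 29.9 CPM), but the log2 difference of 0.47 was under the limit for a call. At chr14:71146115-71146911, in the 1446 kb desert between Gfra2 and Gm9195, lung controls had 3.61 and 3.60 CPM and Vps34-deficient lung 11.7 and 11.9 CPM (1.68 ± 0.26, adjusted p = 0.000288). The spleen values there were 8.29 and 5.92 CPM in controls and 9.04 to 13.5 CPM without Vps34 (adjusted p = 0.0679).

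In spleen, the gain with the smallest p was chr1:151974467-151974814, inside 1700025G04Rik, from 1.43 and 0.551 CPM in controls to 3.59 to 4.87 CPM without Vps34 (1.97 ± 0.36, adjusted p = 0.00424). It was higher in Vps34-deficient lung as well, from 0.425 and 0.564 to 3.09 and 3.60 CPM (2.68 ± 0.49, adjusted p = 0.00177). Without spleen control replicate 2 the spleen call was lost (1.48, adjusted p = 0.144). Inside Nfia, chr4:97995699-97996731 rose from 11.9 and 10.2 to 17.8 to 23.1 CPM in spleen (0.84 ± 0.17, adjusted p = 0.00814) and from 12.5 and 9.03 to 19.7 and 19.9 CPM in lung (0.87 ± 0.20, adjusted p = 0.0102). The spleen call was lost without either spleen control (adjusted p = 0.0946 and 0.184). Between Mmrn1 and Ccser1, chr6:61065478-61066325 rose in spleen from 5.44 and 3.58 to 8.48 to 12.3 CPM (1.17 ± 0.23, adjusted p = 0.00775), a call that was lost without spleen control replicate 2 (0.89, adjusted p = 0.215), and its lung values of 4.47 and 3.95 against 5.69 and 4.45 CPM overlapped. The 211 bp peak chr12:43358779-43358989 between Immp2l and Dnajb9 had 0 counts in both spleen controls and 14, 18, 8 and 22 counts in the Vps34-deficient spleen libraries, with lung controls at 22 and 16. That call too was lost without either spleen control (adjusted p = 0.134 and 0.073).

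**Figure D4:**
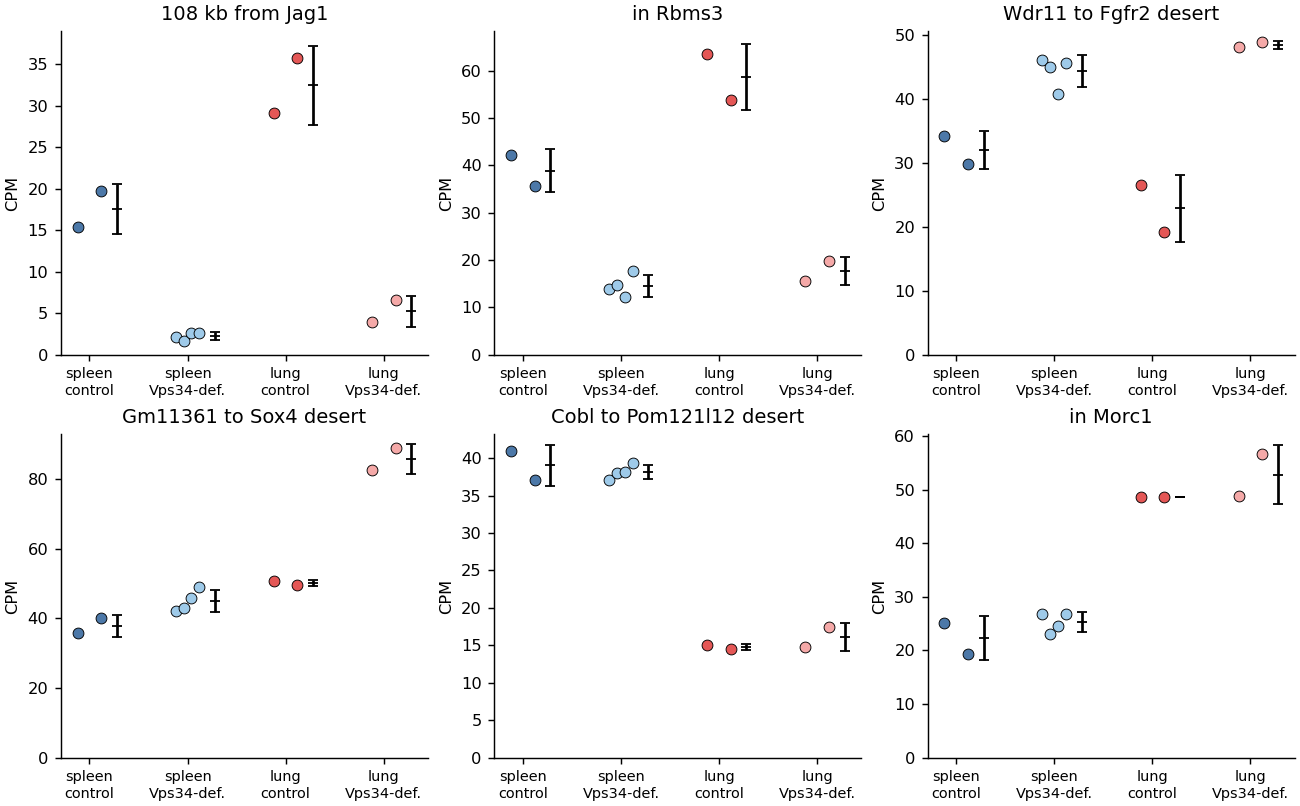
CPM of 6 far-distal peaks by group, with 1 point a library and bars for the group mean ± SD, each panel on its own linear axis from 0. The peaks near Jag1 and in Rbms3 are low in every Vps34-deficient library, the Wdr11 to Fgfr2 peak is high in them, and the Cobl desert and Morc1 peaks differ by tissue instead.

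Called losses within deserts are given here by place, in deserts that were named for their many members or calls. Of all peaks wider than 220 bp, 1.31% were lower in spleen and 4.68% in lung. Between Nmbr and Cited2, a 2952 kb desert next to the gene of a transcriptional co-regulator, 4 of 23 wider peaks were lower in both tissues, all of them 138.2 to 174.1 kb from Cited2. The one with the smallest p in spleen, chr10:17549997-17550679, had 10.9 and 11.6 CPM in spleen controls and 2.45 to 4.73 CPM without Vps34, and 12.1 and 14.4 CPM in lung controls against 4.06 and 4.66 CPM (log2 falls of 1.76 ± 0.23, adjusted p = 8.77e-05, and 1.64 ± 0.29, adjusted p = 0.0011). Its neighbour chr10:17565249-17565679 measured 14.2 and 15.4 CPM against 4.74 to 7.23 CPM in spleen and 27.2 and 28.1 CPM against 12.3 and 13.1 CPM in lung. Farther out in this desert no wider peak was called for genotype.

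The 2348 kb desert between Celf2 and Gata3, the gene of a zinc-finger transcription factor that shapes helper T cells and tissue Tregs, held 78 far-distal peaks. Of its 57 wider peaks, none was called for genotype in spleen, while 6 were lower in lung, beside 4.68% of all peaks of these widths. These 6 lay 500.5 to 931.7 kb from Gata3. At chr2:9141481-9142023 lung controls had 5.0 and 9.17 CPM and Vps34-deficient lung 1.46 and 0.635 CPM, a fall of 2.74 ± 0.45 (adjusted p = 0.000567). Spleen values there were 1.96 and 1.65 CPM in controls and 0.722 to 0.974 CPM without Vps34 (adjusted p = 0.141). At chr2:9294440-9294930 lung went from 3.40 and 6.91 to 0.975 and 1.06 CPM (−2.39 ± 0.40, adjusted p = 0.000705) while spleen had 4.90 and 3.72 against 3.59 to 4.53 CPM. As above, edgeR with all 10 libraries called no far-distal peak for the difference between the tissues' genotype effects, while DESeq2 called 5 and edgeR without lung control replicate 1 called 6.

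In the desert that ends at Sox4, an HMG-box transcription factor gene, the called peaks were higher without Vps34. Of this 690.8 kb Gm11361 to Sox4 desert, 7 of 45 wider peaks were higher and 0 lower in Vps34-deficient lung, beside 1.38% and 4.68% of all peaks of these widths. The 45 had a median log2 fold change of 0.66 in lung, and none was called in spleen (median 0.23). The smallest p was at chr13:28417365-28418025, 536.0 kb from Sox4 and 160.2 kb from Gm11361, with 50.8 and 49.6 CPM in lung controls and 82.7 and 88.8 CPM in Vps34-deficient lung (0.75 ± 0.11, adjusted p = 0.000223). Spleen controls had 35.7 and 40.1 CPM there and Vps34-deficient spleen 42.0 to 49.1 CPM (adjusted p = 0.217). At chr13:28734948-28735339 lung controls had 2.34 and 3.10 CPM, below all other libraries, and Vps34-deficient lung had 6.17 and 6.99 CPM (1.22 ± 0.29, adjusted p = 0.0131). The Prickle1 to Adamts20 desert, next to a planar cell polarity gene, had 6 of 40 wider peaks higher and 1 lower in Vps34-deficient lung. Its tallest called peak, chr15:94254963-94255533, went from 40.4 and 33.6 to 51.3 and 59.3 CPM (0.56 ± 0.12, adjusted p = 0.00706), and the lower one, chr15:93744148-93744566, from 6.80 and 9.74 to 2.60 and 3.18 CPM (−1.56 ± 0.31, adjusted p = 0.00383) and was lower in spleen too (adjusted p = 0.0328).

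**Figure D5:**
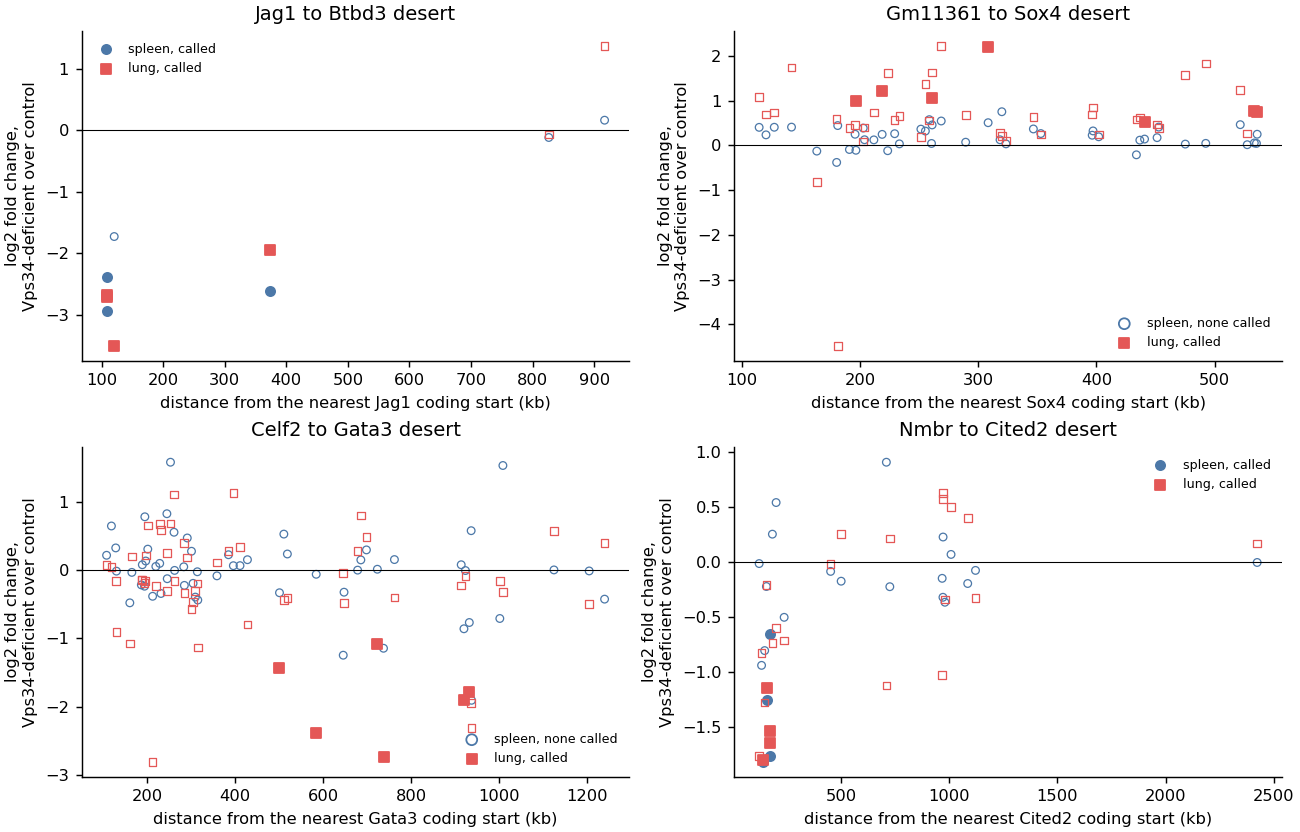
Log2 fold change of Vps34-deficient over control for each tested far-distal peak wider than 220 bp in 4 gene deserts, against its distance in kb from the nearest coding start of the named gene. Filled symbols are called peaks, circles are spleen and squares are lung; the called peaks lie below 0 at 108.1 to 374.1 kb from Jag1, 138.2 to 174.1 kb from Cited2 and 500.5 to 931.7 kb from Gata3, and above 0 at 196.4 to 536.0 kb from Sox4.

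Genes were also read by the far-distal peaks for which theirs was the nearest coding start on the left or right. Of 23 genes of effector and tissue Tregs, 11 had such peaks (Maf, Id2, Prdm1, Rora, Gata3, Jag1, Nfil3, Ahr, Zeb2, Areg and Nt5e), 279 of them wider than 220 bp. In lung 36 were lower and 1 higher without Vps34, in spleen 11 lower and 0 higher, and the medians of all 279 were −0.20 and −0.00 on the log2 scale. As shares, 12.9% were lower and 0.358% higher in lung and 3.94% lower in spleen, beside 4.68% and 1.38% in lung and 1.31% lower in spleen over all peaks of these widths. The list was drawn up with results of these data known and holds Jag1, with 4 of the 36 and 3 of the 11 losses. Without Jag1, 32 of 273 (11.7%) were lower in lung and 8 (2.93%) in spleen. Maf held more of the losses, 9 of the 36 and 5 of the 11, and the shares without both genes were not computed. Of 15 genes of resting T cells, 9 had 228 such peaks, of which 11 were higher and 6 lower in lung and 1 higher and 2 lower in spleen (medians 0.20 and 0.12), which in lung is 4.82% and 2.63%. Of these, Sox4 had 7 of the 11 and Ets1 4 of the 6, and lung counts were 4 higher and 6 lower of 177 without Sox4 and 11 higher and 2 lower of 202 without Ets1. For 17 general T cell and Treg genes, 10 had 343 such peaks, with 4 higher and 21 lower in lung and 1 higher and 6 lower in spleen (medians 0.00 and 0.02), and these shares, 1.17% and 6.12% in lung and 0.292% and 1.75% in spleen, were near those of all peaks. The genes were assigned by position, and which gene a peak acts on was not measured.

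List genes are named here for 3 or more calls in a comparison. Of all peaks wider than 220 bp, 4.68% were lower and 1.38% higher in lung, and 1.31% lower in spleen. Among effector genes, Maf, a bZIP transcription factor gene, had 9 of 73 wider peaks lower and 1 higher in lung and 5 lower in spleen. At chr8:114977624-114978129, 729.2 kb from Maf and within Wwox, spleen went from 9.89 and 8.54 to 2.53 to 3.73 CPM (−1.53 ± 0.20, adjusted p = 9.9e-05) and lung from 18.1 and 15.9 to 5.52 and 5.93 CPM (−1.59 ± 0.24, adjusted p = 0.000242). Zeb2, a repressor of the zinc-finger class, had 6 of 27 wider peaks lower in lung, Id2, an inhibitor of bHLH factors, had 5 of 54, and Prdm1, which encodes Blimp-1, had 4 of 12. Near Id2, chr12:25240041-25240536 had 14.7 and 16.8 CPM in lung controls and 6.98 and 6.35 CPM in Vps34-deficient lung (−1.26 ± 0.26, adjusted p = 0.00398). Spleen libraries lay between 4.03 and 7.03 CPM there and did not separate by genotype. At chr2:48315277-48315853 in the Zeb2 to Acvr2a desert lung went from 16.2 and 20.3 to 8.12 and 10.4 CPM (−1.02 ± 0.20, adjusted p = 0.00311). Near Prdm1, chr10:44821543-44822185 had 33.5 and 39.4 CPM in lung controls and 24.9 and 15.0 CPM without Vps34 (−0.88 ± 0.18, adjusted p = 0.00433).

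Resting and general genes did not all share 1 direction. Ets1, an ETS factor gene on the resting list, had 4 of 26 wider peaks lower in lung and 2 lower in spleen, among them chr9:32901134-32901835, which went from 16.1 and 16.7 to 8.55 to 10.6 CPM in spleen (−0.73 ± 0.16, adjusted p = 0.0205) and from 18.3 and 25.3 to 9.58 and 10.2 CPM in lung (−1.17 ± 0.20, adjusted p = 0.000913). Ikzf2, which encodes the Treg factor Helios, had 5 of 19 wider peaks lower in lung and 2 in spleen. At chr1:69469148-69469841, 214.7 kb from Ikzf2, spleen went from 4.81 and 5.10 to 1.35 to 1.83 CPM (−1.65 ± 0.28, adjusted p = 0.00204) and lung from 6.17 and 6.07 to 1.14 and 2.12 CPM (−1.96 ± 0.37, adjusted p = 0.00205). Near Myc, 6 of 92 wider peaks were lower in lung and 3 in spleen. Of these, chr15:62145035-62145556 within Pvt1, had 30.6 and 32.7 CPM in lung controls and 8.77 and 12.1 CPM in Vps34-deficient lung (−1.64 ± 0.22, adjusted p = 7.12e-05). Tox, a regulator of T cell exhaustion, had 5 of 65 wider peaks lower in lung, and Bcl6 had 3 of 25 higher and 1 lower there, beside 4.68% lower and 1.38% higher of all peaks of these widths. Near Satb1, a chromatin organiser of T cells, 2 of 45 were higher in lung and 1 in spleen, and around Foxo1, whose 628.7 kb desert to Cog6 was the most densely filled of the 10 fullest at 115 far-distal peaks per Mb, 2 of 59 were higher and 1 lower in lung and 0 were called in spleen.

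With all libraries in, more far-distal peaks were called between tissues than between genotypes. Among wider peaks, the control tissue shares without spleen control replicate 1, given below, fell under those of the lung genotype comparison with all libraries (1.98% and 4.83%). The 2 kinds of comparison use the same libraries, so their lists are given side by side and no overlap is drawn. Among wider peaks of control Tregs, 482 (6.15%) were higher and 525 (6.70%) lower in lung than in spleen, beside 4.94% and 4.39% of all peaks wider than 220 bp. Without Vps34, 447 (5.71%) were higher and 658 (8.40%) lower, beside 3.51% and 5.83%. The medians over the wider far-distal peaks were −0.10 and −0.12 on the log2 scale, against −0.05 and −0.11 over all peaks of these widths. Of the peaks higher in lung, 225 were called in both genotypes (46.7% of the control list and 50.3% of the Vps34-deficient list), and of those lower, 236 (45.0% and 35.9%). Over all peaks of these widths the shares were 36.6% and 51.5% of those higher and 42.4% and 31.9% of those lower. In a fit on peaks wider than 220 bp alone, more far-distal peaks were higher than lower in lung, at 6.63% and 5.01% in controls and 6.63% and 5.02% without Vps34. Summed promoter CPM of the T cell and Treg list was 266 to 283 in spleen controls, 225 to 276 in lung controls, 245 to 290 in Vps34-deficient spleen and 210 to 244 in Vps34-deficient lung, and that of the myeloid list, with 3 of 6 genes having a peak, 22.5 to 24.9, 25.7 to 27.4, 16.1 to 22.2 and 16.4 to 18.4 in the same order. Their part in the tissue counts was not tested. In controls the higher share was 1.40% and 2.69% without spleen control replicate 1 or 2 and 3.55% and 3.59% without lung control replicate 1 or 2, and the lower share was 2.82% and 4.40% without spleen control replicate 1 or 2. Without Vps34-deficient lung replicate 1 or 2, the lower share of the deficient comparison was 4.34% or 4.00%, and its higher share was 3.52% without replicate 2.

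Over every width, 3096 far-distal peaks (22.3%) were higher and 546 (3.93%) lower in lung controls, beside 11.8% and 3.53% of all peaks, and 3732 (26.8%) were higher and 686 (4.93%) lower in Vps34-deficient lung, beside 12.5% and 4.72%. The 200 to 220 bp class supplied 2588 and 3235 of the higher calls, which is 46.9% and 58.7% of that class. Its median log2 fold change over all 5514 peaks was 1.46 in controls and 1.32 without Vps34. Peaks of this width nearer to genes, at 1 to 100 kb from a start, did likewise. Of these, 38.3% were higher in lung controls and 45.7% without Vps34, with medians of 1.29 and 1.16. The far-distal 200 to 220 bp class had a median CPM of 0.713 and 0.827 in spleen controls, 0.993 to 1.39 in Vps34-deficient spleen, 2.55 and 1.41 in lung controls and 2.60 and 2.75 in Vps34-deficient lung. Peaks wider than 220 bp had a median of 2.54 to 3.20 CPM in every library. The counts over every width in controls fell to 5.98%, 13.5% and 7.64% higher without spleen control replicate 1, spleen control replicate 2 or lung control replicate 1, and the lower counts to 1.62% and 2.53% without spleen control replicate 1 or 2. Without Vps34-deficient lung replicate 1 or 2, the deficient comparison over every width had 17.0% or 14.5% higher and 2.56% or 2.39% lower.

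In controls, the peaks higher in lung began, by p, with chr12:54459246-54459815 between Egln3, a prolyl hydroxylase gene of the hypoxia response, and Sptssa. It had 6.15 and 5.79 CPM in spleen controls, 6.05 to 7.03 CPM in Vps34-deficient spleen, 19.1 and 25.7 CPM in lung controls and 18.2 and 20.3 CPM in Vps34-deficient lung. Every lung library exceeded every spleen library, by 1.99 ± 0.21 in controls (adjusted p = 1.08e-05) and 1.63 ± 0.17 without Vps34 (adjusted p = 3.44e-06). Within Morc1, chr16:48594407-48595303 lay 0.188 kb from a non-coding start of that gene and had 19.4 to 26.8 CPM in spleen and 48.7 to 56.7 CPM in lung (1.20 ± 0.14, adjusted p = 2.43e-05, and 1.11 ± 0.11, adjusted p = 2.53e-06). In the Gata3 desert, chr2:9367844-9368554, 510.4 kb from that gene, had 4.55 and 5.79 CPM in spleen controls and 15.7 and 18.8 CPM in lung controls (1.83 ± 0.22, adjusted p = 3.6e-05). Without Vps34 it had 7.09 to 7.67 CPM in spleen and 14.5 and 11.4 CPM in lung (0.86 ± 0.19, adjusted p = 0.00205).

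Further peaks higher in lung follow. The Sox4 desert peak chr13:28417365-28418025, given above, was higher in Vps34-deficient lung than in Vps34-deficient spleen by 0.98 ± 0.09 (adjusted p = 1.09e-06). In the desert between Hhipl2 and Dusp10, a MAP kinase phosphatase gene, chr1:183803342-183804122 had 0.974 to 2.94 CPM in the 6 spleen libraries and 7.07 to 11.6 CPM in the 4 lung libraries (2.59 ± 0.27 without Vps34, adjusted p = 3.15e-06, and 2.18 ± 0.31 in controls, adjusted p = 8.25e-05). The 200 to 220 bp peaks chr15:61535848-61536060 in the A1bg to Myc desert, chr10:115068296-115068506 between Trhde and Tph2 and chr15:48607105-48607314 in Csmd3 were among the 3 with the smallest p, the first of them in controls and the others without Vps34, at 13.4 to 44.2 CPM in spleen and 31.2 to 106 CPM in lung. The Csmd3 peak lost its call with GC offsets, where its log2 difference went from 1.52 to 0.38 (adjusted p = 0.0157), while the other 2 kept theirs.

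In controls, the peaks lower in lung were led by chr11:14142360-14143031. Without Vps34 it came second to the Sel1l to Flrt2 peak described after these. It lies 456.6 kb from Pom121l12 in the 2134 kb desert beyond Cobl, an actin nucleator gene. Spleen libraries had 37.1 to 41.0 CPM whatever the genotype and lung libraries 14.5 to 17.4 CPM. The peak fell by 1.32 ± 0.14 in controls (adjusted p = 1.08e-05) and by 1.20 ± 0.12 without Vps34 (adjusted p = 2.52e-06). Inside St6galnac3, a sialyltransferase gene, chr3:153570988-153571659 had 23.1 to 33.4 CPM in spleen, 6.59 and 9.17 CPM in lung controls and 12.5 and 14.2 CPM in Vps34-deficient lung. It was lower in lung by 1.70 ± 0.19 and 1.10 ± 0.16 (adjusted p = 2.2e-05 and 5.28e-05) and, within lung, higher without Vps34 by 0.71 ± 0.20 (adjusted p = 0.0359). In Magi2, a scaffold protein gene, chr5:20087050-20087501 had 8.95 to 12.6 CPM in spleen and 1.27 to 2.60 CPM in lung, which is 2.60 ± 0.31 and 2.21 ± 0.27 lower on the log2 scale (adjusted p = 3.06e-05 and 9.76e-06). The Rasa1 to Cox7c desert peak chr13:85724621-85725136 had 37.2 to 50.8 CPM in spleen and 14.3 to 20.3 CPM in lung (−1.31 ± 0.16 and −1.22 ± 0.15, adjusted p = 4.62e-05 and 9.34e-06).

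Deserts named for their members or calls were also counted by tissue. Of all peaks wider than 220 bp, 4.94% were higher and 4.39% lower in lung in controls, and 3.51% higher and 5.83% lower without Vps34. The 3843 kb desert between Sel1l, of the endoplasmic reticulum degradation pathway, and Flrt2 had 12 of 31 wider peaks lower and 1 higher in lung without Vps34, and 6 lower and 1 higher in controls. Its leading peak, chr12:92529928-92530583, had 7.75 and 7.51 CPM in spleen controls, 9.62 to 14.1 CPM in Vps34-deficient spleen, 2.13 and 1.83 CPM in lung controls and 0.812 and 1.27 CPM in Vps34-deficient lung. It fell in lung by 1.88 ± 0.29 in controls (adjusted p = 0.000149) and by 3.41 ± 0.30 without Vps34 (adjusted p = 5.7e-07). The Vrk1 to 3110018I06Rik desert, with 90 far-distal peaks, had 8 and 10 of 72 wider peaks lower in lung and 1 higher each time. The Sox4 desert had 9 lower and 0 higher in lung controls (median −0.70), and 3 lower and 1 higher without Vps34 (median −0.20). In the Gata3 desert 8 of 57 were higher and 2 lower in controls, and 4 higher and 6 lower without Vps34. By contrast, the deserts Dsel to Cntnap5a and Olfm4 to Pcdh17, with 16 and 15 higher peaks of every width in lung in controls and 21 each without Vps34 (the second was named for the latter count alone), had 0 calls among their 3 and 1 wider peaks, so that every call there came from narrower peaks. In the Zeb2 to Acvr2a desert 5 wider peaks were higher and 2 lower in controls, and in the Trib2 to Lpin1 desert 7 were higher and 4 lower without Vps34.

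For the gene lists, tissue counts were as follows. Around effector genes 31 wider peaks were higher and 7 lower in lung controls, and 18 higher and 24 lower without Vps34 (medians 0.07 and −0.08), which is 11.1% and 2.51%, and 6.45% and 8.60%, beside 4.94% and 4.39%, and 3.51% and 5.83%, of all peaks of these widths. Around resting genes 7 were higher and 19 lower in controls, and 6 and 15 without Vps34 (medians −0.22 and −0.15), or 3.07% and 8.33%, and 2.63% and 6.58%. General T cell genes had 13 higher and 22 lower, and 11 and 32 (medians −0.16 and −0.22), or 3.79% and 6.41%, and 3.21% and 9.33%. Maf had 9 of 73 higher and 0 lower in controls, Gata3 had 8 of 57 higher and 2 lower, and Rora, the gene of a nuclear receptor of tissue lymphocytes, had 4 of 24 higher and 0 lower, such as chr9:69034053-69034995 at 53.1 and 50.4 CPM in spleen controls and 66.6 and 82.8 CPM in lung controls (0.61 ± 0.12, adjusted p = 0.000883). Near Id2 the peak chr12:25240041-25240536, given above, was higher in lung controls than in spleen controls by 1.60 ± 0.25 (adjusted p = 0.000158). Around Runx1, a transcription factor gene of T cell development, 4 of 29 were lower and 0 higher, with chr16:93016975-93017552 at 14.3 and 17.7 CPM in spleen controls and 8.51 and 9.31 CPM in lung controls (−0.76 ± 0.19, adjusted p = 0.00869). Myc had 3 of 92 higher and 8 lower in controls and 0 and 11 without Vps34, among them chr15:62271335-62271831 at 8.20 to 11.0 CPM in Vps34-deficient spleen and 4.06 and 1.91 CPM in Vps34-deficient lung (−1.60 ± 0.27, adjusted p = 0.000189). Of wider peaks in controls, Foxp1 had 1 of 9 lower, Ahr 3 of 24 and Bcl11b 2 of 20, Cxcr4 had 3 of 15 and Tgfbr2 2 of 19 higher, and Cblb had 2 of 42 higher and 3 lower, beside 4.94% higher and 4.39% lower of all peaks of these widths.

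Far-distal peaks lay in most deserts, but the wider ones were gathered in fewer. Of 620 deserts on chromosomes 1 to 19, with a summed length of 760.8 Mb, 587 held at least 1 far-distal peak and 410 at least 1 wider than 220 bp, while 177 held narrower ones alone. The 43 deserts with the most wider peaks held 1544 of the 3053 in deserts. The 10 fullest included 2 antigen receptor loci. Adam6a to Zfp386, which contains 194 receptor gene segments of the immunoglobulin heavy chain locus, held 109, of which 66 lay within 1 kb of a segment, and Olfr1507 to Dad1, with 201 T cell receptor segments, held 84, of which 59 did. The immunoglobulin desert had 3 wider peaks lower in Vps34-deficient lung and 1 in Vps34-deficient spleen of 84, and the T cell receptor desert 1 higher and 1 lower in lung of 73. Of all peaks wider than 220 bp, 1.38% were higher and 4.68% lower in Vps34-deficient lung, and 0.227% higher and 1.31% lower in Vps34-deficient spleen. The others among the 10 fullest were Vrk1 to 3110018I06Rik with 90, Celf2 to Gata3 with 78, Myc to Gsdmc with 76, Foxo1 to Cog6 with 72, Id2 to Rnf144a with 63, Cd83 to Jarid2 with 59, and Kif2a to Ndufaf2 and Gm11361 to Sox4 with 51 each. Of these, Cd83 to Jarid2 had no wider peak called for genotype, and Kif2a to Ndufaf2 had 3 of 38 lower in lung and 1 in spleen. The second holds the Zswim6 start given above, so it is a desert by the GENCODE release used here and not by RefSeq. Rasgrp1 to Thbs1, next to the gene of a Ras activator, was named for 3 higher and 1 lower peak in Vps34-deficient spleen, of which 1 and 1 were wider than 220 bp, and Ptger4 to Dab2, next to a prostaglandin receptor gene, for 1 higher and 2 lower wider peaks in Vps34-deficient spleen.

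Motif letters were counted in the central 200 bases of every peak. Of far-distal peaks wider than 220 bp, 17.1% held the ETS letters, 12.6% the AP-1, 12.6% the E-box, 11.9% the RUNX, 5.71% the TCF/LEF, 5.21% the CTCF core, 5.18% the NF-kB, 3.70% the FOX, 3.69% the GATA, 2.68% the KLF and 2.48% the NR4A letters. In all peaks wider than 220 bp these shares were 13.8%, 10.2%, 13.3%, 8.86%, 4.06%, 5.15%, 4.59%, 2.81%, 3.00%, 3.11% and 1.59% in the same order, and in those at 1 to 100 kb from a start the CTCF share was 6.42%. The 200 to 220 bp class held fewer, with ETS letters in 5.98%, RUNX in 4.08%, AP-1 in 8.54% and CTCF in 1.07%. Among the 378 wider peaks lower in Vps34-deficient lung the AP-1 letters stood in 29.4% and the ETS letters in 23.0%, and among the 140 lower in spleen each stood in 27.1%. The 155 higher in Vps34-deficient lung had AP-1 letters in 9.03% and TCF/LEF letters in 9.68%. Over the whole peak in place of the window, AP-1 letters stood in 42.3% of the 378, 41.4% of the 140 and 25.8% of the 155, beside 21.1% of all wider far-distal peaks, so that the share in the 155 lay below that of all wider peaks in the window and above it over the whole peak. TCF/LEF letters stood in 18.7% of the 155 over the whole peak, beside 10.6% of all wider far-distal peaks. None of the 378, the 140 or the 155 held the CTCF core in the window, where a count of 0 allows up to 0.794%, 2.14% and 1.94%. Of peaks higher in lung controls 18.5% held AP-1 letters, and of those lower 12.8% did, with NR4A letters in 4.76%. These are descriptions of the called lists, and the shares were not tested.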

How the data were processed

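Per the labels, ATAC-seq was read in 10 libraries of sorted Tregs: 2 spleen control, 4 spleen Vps34-deficient, 2 lung control and 2 lung Vps34-deficient. The authors deposited raw counts of nucleosome-free reads in merged peaks: reads were trimmed, aligned with BWA, stripped of duplicates with Picard and SAMtools and shifted for the Tn5 cut, peaks were called with MACS2 (2.1.0.20150603 in the submitters' processing notes) and reads per peak counted with bedtools. The study's methods name mm9 and the processing notes mm10/GRCm38; all 21 chromosomes compared fit GRCm38 lengths and a peak covered 51.3% of the 21938 starts of protein-coding genes, so GRCm38 was used. For the spleen, the methods give 4 control and 2 Vps34-deficient libraries, the exchange of the labels' 2 and 4, and the labels were followed.

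Distances were taken to transcript starts of protein-coding genes in GENCODE M21. Counts of 97109 peaks that passed filterByExpr were fitted in edgeR 4.0.16 (R 4.3.3) with TMM scaling, 1 mean per group over all 10 libraries and the quasi-likelihood test. A peak was called at a Benjamini-Hochberg adjusted p under 0.05 and an absolute log2 fold change over 0.5. SE is the log2 fold change divided by the square root of its F. CPM used each library's total in peaks. Shares of counts were compared by exact two-sided permutation over libraries. The scripts were tested on simulated data. Peaks of chromosome Y summed to at least 56.9 CPM in 5 libraries and at most 21.4 CPM in 5, and a fit with this as a covariate was among the alternatives.

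Named peaks are the 3 called members with the smallest p per comparison and direction whose groups did not overlap, the 6 highest and the 3 farthest from a start; the same rule was repeated among peaks wider than 220 bp. Of the 6 highest, 1 is not reported here. Deserts are the 10 with the most members and up to 3 with the most calls per comparison, and list genes those with 3 or more calls. Other peaks described within a desert or beside a gene were chosen after their values were seen. The members and lists were chosen with earlier results of these data known. Intervals and floors cover counting error only.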

Additional observations from a re-analysis of the deposited data

Results flagged for a closer look

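At chr15:5693729-5694141, a 413 bp peak in the Ptger4 to Dab2 desert 449.7 kb from Ptger4, the tissue effect was called in opposite directions in the 2 genotypes. Controls had 2.67 and 3.31 CPM in spleen and 5.10 and 6.63 CPM in lung (log2 difference 1.07, adjusted p = 0.0429 by edgeR), while Vps34-deficient libraries had 1.44 to 3.07 CPM in spleen and 0.812 and 1.06 CPM in lung (−1.20, adjusted p = 0.0426). The difference between these effects was −2.27 ± 0.54 and did not pass its own test (adjusted p = 0.314). Dixon's criterion of 0.829 was applied to the 4 Vps34-deficient spleen libraries alone, for 37 sets of values (shares of counts and named peaks). In none did it set a library apart, where chance does so in about 1 of 20 sets. The groups of 2 libraries, lung controls among them, were not checked in this way.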

How the results depend on the processing

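Of 569 alternative values computed for 28 named peak effects, 559 kept their direction and their call, 10 were no longer called (6 of them with a library left out) and 0 reversed. The shares of far-distal peaks called moved more, and the cause was not tested except where an alternative's own construction shows it. Values below are percentages of tested far-distal peaks of every width, then of those wider than 220 bp, with the setting named.

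For genotype in spleen, the higher share (0.82% and 0.332%) became 1.28% with DESeq2, 1.31% with the chromosome Y covariate, 2.79% and 1.31% with spleen libraries alone, 0.546% and 0.204% at an absolute log2 fold change over 1, 0.0% of wider peaks over 500 kb from a start, 0.215% of wider peaks far from every annotated start, 0.715% in a fit on wider peaks alone, and 0.332% where every width was restricted to wider peaks. The lower share (1.03% and 1.79%) became 1.55% with halved counts, 1.85% and 3.08% with spleen libraries alone, 0.387% and 1.12% over 500 kb, 0.519% and 1.18% far from every annotated start, and 1.79% among wider peaks. For genotype in lung, the higher share (1.53% and 1.98%) became 2.31% with halved counts, 0.266% and 0.303% with lung libraries alone, 0.942% and 1.12% at a log2 fold change over 1, 0.941% and 1.3% over 500 kb, and 4.01% in a fit on wider peaks alone. The lower share (2.83% and 4.83%) became 1.73% and 2.98% with lung libraries alone, 1.11% and 3.16% over 500 kb, 1.69% far from every annotated start, and 4.83% among wider peaks.

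For tissue in controls, the higher share (22.3% and 6.15%) became 35.1% over 500 kb and 6.15% among wider peaks, and the lower share (3.93% and 6.7%) became 2.49% and 4.15% at a log2 fold change over 1, 1.66% over 500 kb and 6.7% among wider peaks. Without Vps34, the higher share (26.8% and 5.71%) became 44.6% over 500 kb and 5.71% among wider peaks, and the lower share (4.93% and 8.4%) became 3.03% and 5.03% at a log2 fold change over 1, 2.6% over 500 kb, 8.4% among wider peaks and 5.02% in a fit on wider peaks alone. The interaction called 5 peaks with DESeq2. Among wider peaks the difference in the share of counts turned to −0.257 points for tissue and −0.0186 points for genotype.

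Replicate numbers did not pair the libraries: same-numbered libraries of different groups correlated at −0.098 to 0.064 in their deviations. With the replicate block, the spleen genotype shares were 0.0575% and 0.0383% higher and 0.201% and 0.358% lower, the lung higher shares 0.597% and 0.894%, and the Vps34-deficient tissue shares 10.6% and 2.53% higher and 2.09% and 3.64% lower. With the replicate block and GC offsets together these were 0.0216%, 0.0255%, 0.223%, 0.396%, 0.561%, 0.83%, 7.14%, 1.98%, 2.58% and 4.47% in the same order, and the control tissue higher shares were 13.1% and 4.05%. Among named peaks, chr6:61065478-61066325 was not called in spleen with the block (1.20, adjusted p = 0.0529) or with the block and GC offsets (1.0, adjusted p = 0.129), nor was the Csmd3 peak chr15:48607105-48607314 in Vps34-deficient tissue with the block and GC offsets (0.41, adjusted p = 0.0831).

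With 1 library left out at a time, the spleen genotype shares ran from 0.0215% to 2.49% and 0.0128% to 0.817% higher, and 0.273% to 1.54% and 0.485% to 2.67% lower, lowest without a spleen control. The lung genotype shares ran from 0.431% (without lung control replicate 2) to 9.09% (without lung control replicate 1) and 0.715% to 5.57% higher, and 1.06% to 2.94% and 1.83% to 5.0% lower. Tissue shares ran from 5.98% to 22.0% and 1.4% to 6.07% higher and 1.62% to 5.03% and 2.82% to 8.63% lower in controls, and from 14.5% to 30.3% and 3.52% to 7.22% higher and 2.39% to 5.82% and 4.0% to 9.87% lower without Vps34. The interaction called 0 to 6 peaks, and the share differences ran from 1.35 to 2.06 points for tissue and 0.418 to 1.22 points for genotype. Where a group kept 1 library, its spread was taken from the other groups.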
